A study of Mus musculus with 35 samples.

Results

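Otx1, Otx2, Emx1, Emx2, En1, En2, Gbx2, Dmbx1 and Barhl1 are homeobox genes whose expression marks out regions of the early brain. These 9 genes were chosen by gene symbol, and all 9 were found among the 30723 genes measured, as 15 transcripts. A gene was tested when it averaged at least 1 FPKM (fragments per length of transcript and library size, a level that can be compared between genes) in at least 1 tissue, as 13934 genes did. All 9 genes passed this filter, each through the 2 brain tissues. Emx2 passed it through the other 4 tissues as well, Otx1 also through the 3 facial tissues, Otx2 and Dmbx1 also through FNP, Emx1 and En1 also through limb, and Gbx2 also through MNP. En2 and Barhl1 passed it through brain alone and so could only enter the tests as genes high in brain. RNA came from wild-type CD1 mouse embryos, an outbred stock, at embryonic day 11.5, with no treatment, and each library was a pool of tissue from several embryos. The 35 libraries comprised dorsal brain (dB, n = 6), ventral brain (vB, n = 6), frontonasal prominence (FNP, n = 6), mandibular prominence (MNP, n = 6), maxillary prominence (MXP, n = 5, replicates 1, 2, 3, 5 and 6) and limb (n = 6). The sample labels call dB and vB dorsal and ventral neural tube, while the dissection protocol calls them brain. Neural tissue below means dB and vB, and facial tissue means the 3 prominences.

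Homeobox genes encode transcription factors that bind DNA through a homeodomain, and in the neural tube their domains of expression follow each other from front to back. Otx1 and Otx2 are expressed in the future forebrain and midbrain and Gbx2 in the anterior hindbrain, and where these domains meet lies the isthmic organizer, a signalling centre that makes Fgf8 and is flanked by expression of En1, En2 and Wnt1. Emx1 and Emx2 mark the dorsal telencephalon that forms the cerebral cortex, Dmbx1 marks the midbrain and the caudal diencephalon, and Barhl1 marks sets of young neurons along the neural tube.

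The 9 genes differ in the codon that sets which DNA bases the recognition helix of the homeodomain prefers, so the coding stretch around it is shown for 8 of them. The 36-base stretches below were read from the mouse transcripts of GENCODE vM21 (GRCm38, the build also called mm10), and the capitals mark that codon. In 3 genes it reads lysine (AAG), the residue of the Bicoid class of homeodomains, which prefers TAATCC:
Otx1: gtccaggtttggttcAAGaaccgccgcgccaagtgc
Otx2: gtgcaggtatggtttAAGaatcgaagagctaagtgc
Dmbx1: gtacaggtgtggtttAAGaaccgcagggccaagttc
In 5 other genes it reads glutamine (CAG or CAA), the residue of most other homeodomains, which prefer TAATTA and similar sites:
Emx1: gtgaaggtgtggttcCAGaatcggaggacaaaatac
Emx2: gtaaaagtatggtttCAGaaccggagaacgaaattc
En1: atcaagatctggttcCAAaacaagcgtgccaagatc
En2: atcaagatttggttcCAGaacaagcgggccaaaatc
Barhl1: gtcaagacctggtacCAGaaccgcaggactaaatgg
Over the 171 bases of homeobox that could be aligned without gaps, the pairs of the same family were the most alike. En1 and En2 shared 82.5% of bases (30 bases differed), Otx1 and Otx2 79.5% (35 bases differed) and Emx1 and Emx2 78.4% (37 bases differed). Dmbx1 shared 67.8% with Otx1 and 59.6% with Otx2, Emx1 and Barhl1 shared 65.5%, and the least alike pair, Otx2 and En1, shared 43.3%.

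The libraries were first checked with genes other than the 9. Each library had between 11742 and 12955 genes at 1 FPKM or more, and the coverage that went with 1 FPKM lay between 2.70 and 5.51. The neural progenitor and neuron list of 12 genes was at or above 1 FPKM in full in every brain library and passed as higher in neural than facial tissue for 12 of 12 genes. Hox genes and Egr2 of the hindbrain were near absent: Hoxa2 and Egr2 reached at most 0.225 and 0.166 FPKM in any brain library, and the 11 genes of this kind in the hindbrain list stayed at or below 0.403 FPKM there. The brain libraries differed in the summed level of 12 telencephalon genes, which was lowest in dB replicate 4 and vB replicate 4 (124 and 59.4 FPKM, against 230 to 633 FPKM in the other 10). Outside the brain, Nkx2-1, a regulator of the ventral forebrain, and Hes5, a gene of neural progenitors, were raised together in FNP replicates 4 and 5 (Nkx2-1 at 44.7 and 15 FPKM, against at most 1.12 FPKM in the other 4), in MXP replicate 5 (7.92 FPKM, against at most 0.161 FPKM) and in limb replicate 1 (2.87 FPKM, against at most 0.225 FPKM). For Otx1, Otx2, Emx2 and Dmbx1, some contrasts that include these FNP, MXP and limb libraries are given below with and without them.

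**Figure D1:**
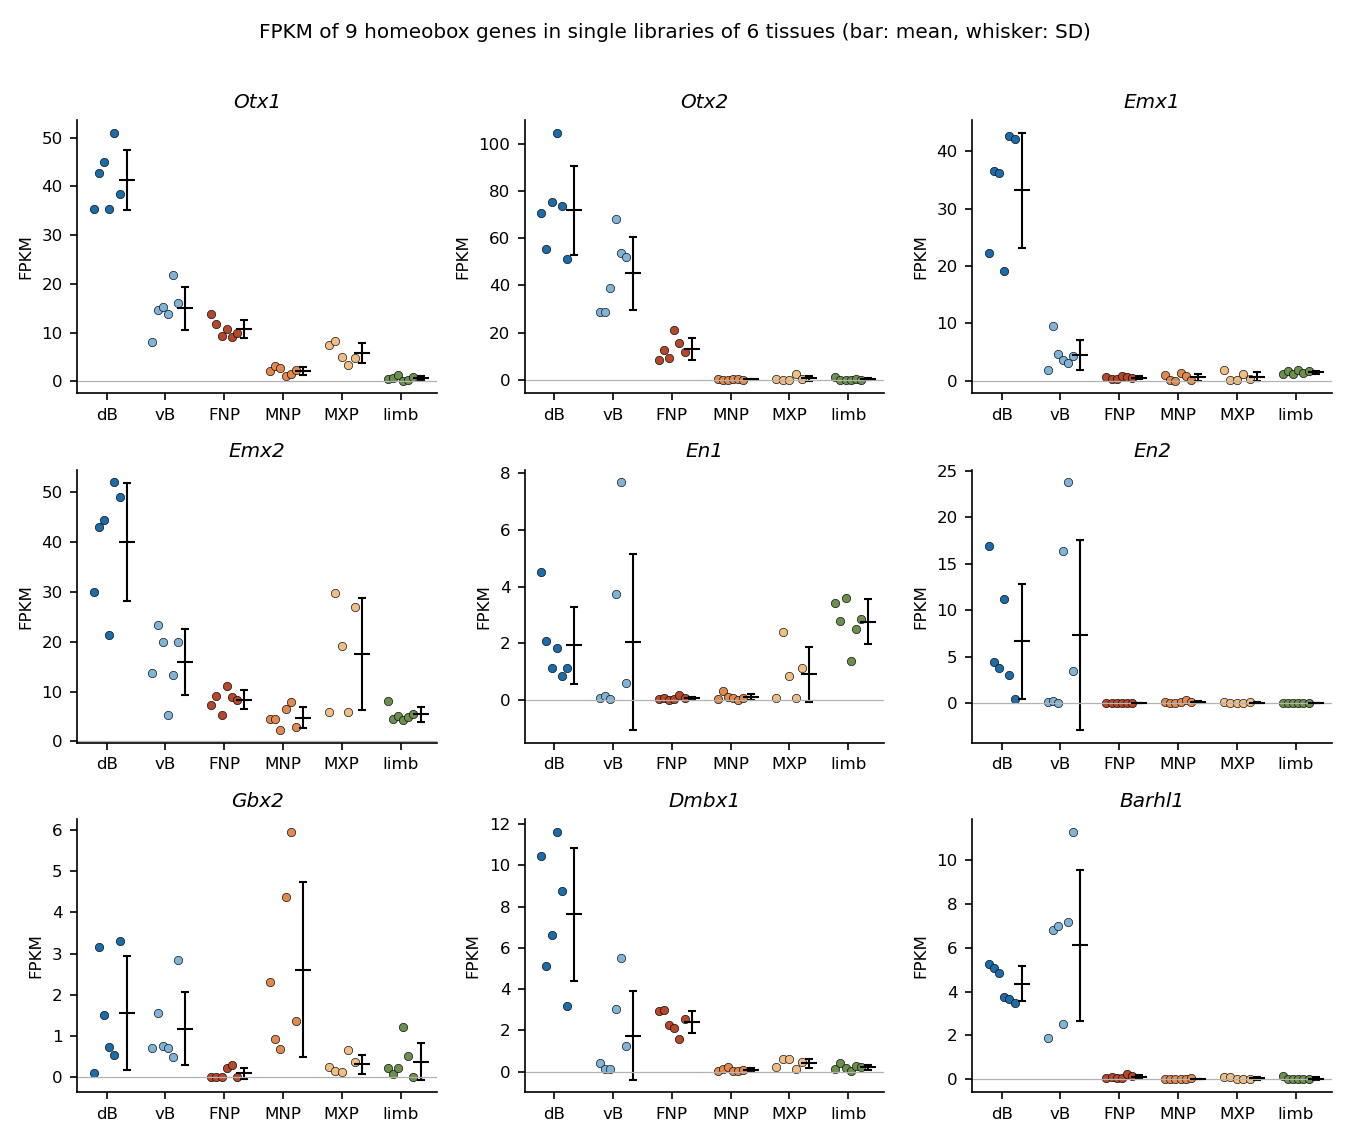
FPKM of each gene (y axis, linear, own scale per panel) in single libraries of the 6 tissues, with the mean as a bar and the SD as a whisker (n = 6, MXP n = 5). Otx1, Otx2, Emx1 and Emx2 reached over 40 FPKM in brain, En1 and Gbx2 stayed under 8 FPKM everywhere, and in vB the points of En1, En2 and Dmbx1 lie far apart.

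Most of the 9 genes passed as higher in neural tissue than in facial tissue and limb, and over all libraries none passed as lower. Not every mean was highest in brain, since En1 averaged most in limb (2.76 FPKM) and Gbx2 in MNP (2.61 FPKM). A gene passed with an adjusted p (limma, Benjamini-Hochberg over all 13934 genes) under 0.05 and at least a 2-fold change of FPKM + 1, a scale on which scarce transcripts show less change than their FPKM do. Between neural and facial tissue 7 of 9 genes passed as higher in neural tissue, where 6.64% of all tested genes did, and 0 passed as lower, where 4.64% did. The median log2 fold change was 2.05 over the 9 genes and -0.02 over all tested genes. Between neural tissue and limb 7 of 9 passed as higher, against 8.05% of all genes, and 0 as lower, against 4.36%. En2 and Barhl1 are among the 7 in both contrasts. They entered the tests through brain alone, so the filter had set the direction of their calls and they add little to these counts. Between facial tissue and limb 2 passed as higher (1.51% of all genes) and 1 as lower (1.11%). In dB against vB 4 passed as higher (0.954%) and 0 as lower (0.438%), in FNP against the other prominences 3 as higher (1.57%) and 0 as lower (0.739%), and in MNP against MXP 1 as higher (0.689%) and 2 as lower (0.344%). The contrasts share libraries, and RNA of whole tissue cannot tell fewer cells of a type from less RNA per cell. Over the 15 pairs of tissues 74 of 135 tests of the 9 genes passed, while in each pair between 1.03% and 13.6% of all genes passed in either direction. The 74 include calls of En2 and Barhl1 in every pair of a brain tissue with another tissue. The filter had set the direction of those calls as well, so they add little to this total.

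**Figure D2:**
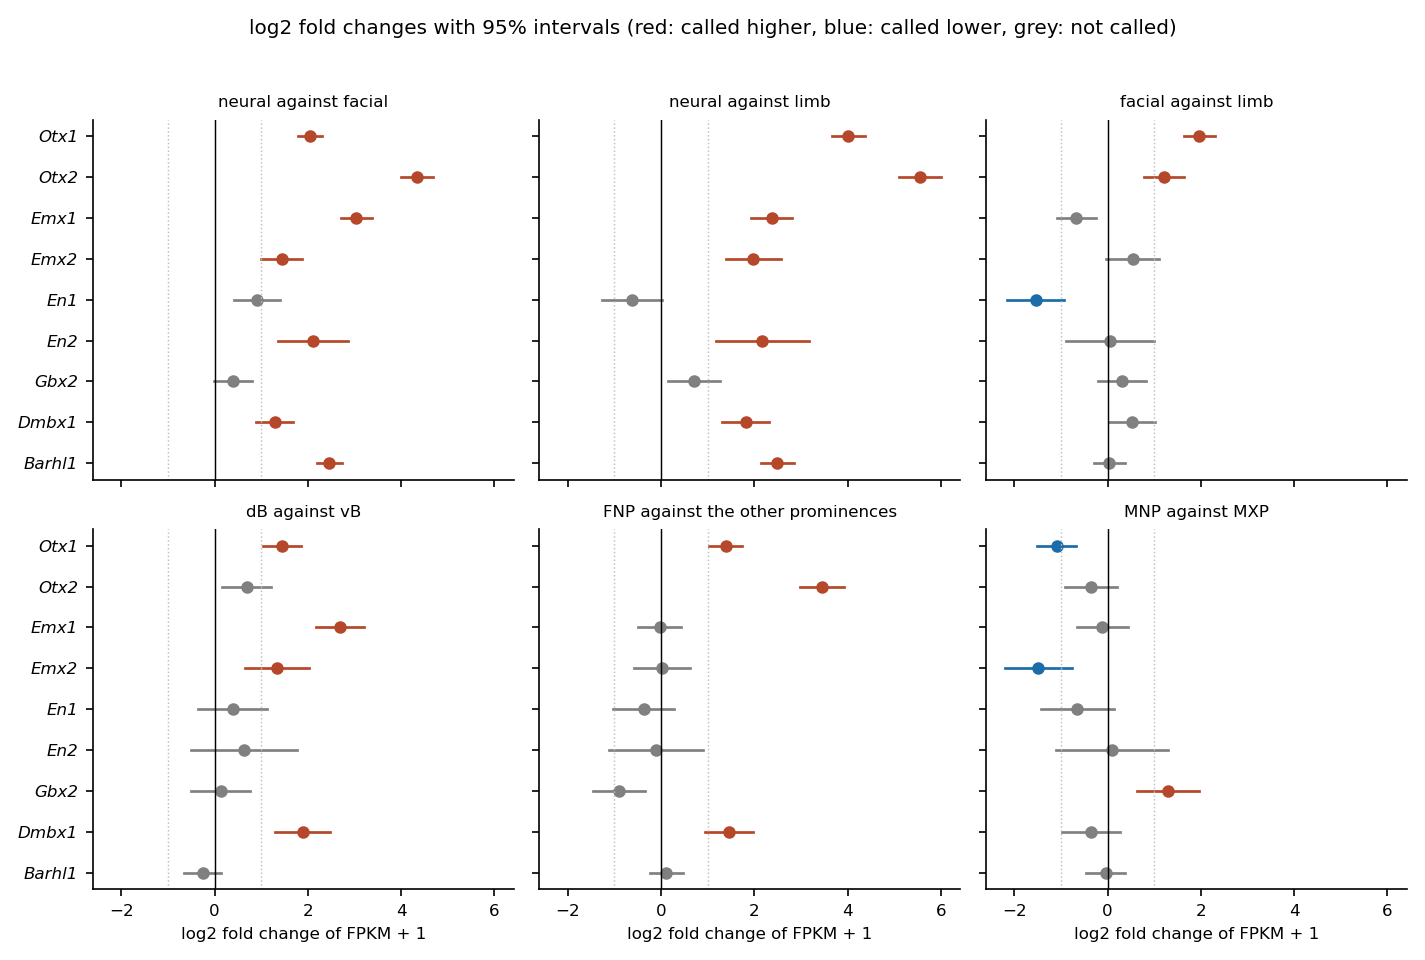
log2 fold change of FPKM + 1 (x axis) with its 95% interval for the 9 genes (rows) in 6 contrasts (panels), red where a gene passed as higher, blue where it passed as lower and grey where it did not pass. In neural against facial tissue and in neural tissue against limb the 7 red points are Otx1, Otx2, Emx1, Emx2, En2, Dmbx1 and Barhl1.

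Otx1 and Otx2 set forebrain and midbrain apart from hindbrain and act in the head from gastrulation on. Otx2 (chr14:48658184-48667506, minus strand) had the largest log2 fold change of FPKM + 1 between brain and face, a scale on which the scarcer En2 and Barhl1 show less change. It lay between 28.7 and 105 FPKM in the 12 neural libraries (median 54.4), and between 0 and 21.2 FPKM in the 17 facial libraries (median 0.246). No library overlapped, and the log2 fold change was 4.34 (SE 0.17, adjusted p = 1.4e-20). Otx1 (chr11:21994764-22001651, minus strand) lay between 8.07 and 51.0 FPKM in neural libraries (median 28.6), and between 1.13 and 13.8 FPKM in facial libraries (median 5.03). Here the groups overlapped through vB replicate 1 (8.07 FPKM) alone, and the log2 fold change was 2.05 (SE 0.13, adjusted p = 2.9e-15). Against limb, where Otx1 reached at most 1.28 FPKM and Otx2 at most 1.17 FPKM, no neural library overlapped, and the log2 fold changes were 4.02 (SE 0.17, adjusted p = 1.4e-19) for Otx1 and 5.55 (SE 0.22, adjusted p = 3.6e-20) for Otx2. Facial tissue was also higher than limb, by 1.97 for Otx1 (SE 0.16, adjusted p = 1.9e-11) and by 1.21 for Otx2 (SE 0.21, adjusted p = 7.8e-05). For Otx2 this came through FNP (3.51 against limb, adjusted p = 1.4e-12). MXP (0.24, adjusted p = 0.70) and MNP (-0.12, adjusted p = 0.91) did not pass against limb. Among replicates 1 to 3 alone the change of Otx2 between facial tissue and limb was under a fold of 2 (0.83). Without FNP replicates 4 and 5, MXP replicate 5 and limb replicate 1 it was 1.19 and still passed.

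Within the brain the 2 Otx genes differed in how far they favoured dB. Otx1 had 35.4, 42.7, 45.1, 35.4, 51.0 and 38.5 FPKM in dB replicates 1 to 6, against 8.07, 14.6, 15.3, 13.8, 21.8 and 16.2 FPKM in vB. Every dB library was above every vB library, and Otx1 rose in dB by a log2 fold change of 1.45 (SE 0.20, adjusted p = 5.3e-06). Otx2 had 70.6, 55.3, 75.1, 105, 73.5 and 51.3 FPKM in dB, against 28.7, 28.8, 38.9, 68.2, 53.5 and 52.1 FPKM in vB. These ranges overlapped through vB replicates 4 to 6, and the log2 fold change of 0.69 (SE 0.26, 95% interval 0.17 to 1.22) did not pass (adjusted p = 0.13). Among replicates 1 to 3 alone Otx2 passed (log2 fold change 1.04, adjusted p = 0.025), and among replicates 4 to 6 alone Otx1 did not (1.23, adjusted p = 0.053). The ratio of Otx1 to Otx2 FPKM was 0.609 ± 0.166 in dB and 0.350 ± 0.107 in vB (SD, n = 6 each), with its lowest value of each tissue, 0.338 in dB and 0.203 in vB, in replicate 4.

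In the face both Otx genes were highest in FNP, the tissue that lies over the forebrain and holds the olfactory epithelium. Otx2 had 8.27, 12.7, 9.20, 21.2, 15.4 and 11.9 FPKM in FNP, while 10 of the 11 other facial libraries were at 0.306 FPKM or below and MXP replicate 5 was at 2.49 FPKM. FNP was thus clear of MNP and MXP in every library, with a log2 fold change of 3.45 (SE 0.23, adjusted p = 3.4e-13). Otx1 had 13.8, 11.8, 9.35, 10.7, 9.04 and 9.89 FPKM in FNP, against 1.13 to 3.17 FPKM in MNP (median 2.21), and 7.43, 8.23, 5.03, 3.31 and 4.86 FPKM in MXP. Again no library overlapped (log2 fold change 1.38, SE 0.17, adjusted p = 4.1e-07). The facial libraries with raised Nkx2-1 and Hes5, FNP replicates 4 and 5 and MXP replicate 5, were also the highest of their tissue for Otx2 but not for Otx1. With these libraries and limb replicate 1 left out, an alternative chosen after the data were seen, the FNP contrast gave 3.37 for Otx2 and 1.36 for Otx1, both still passing. The 10 olfactory epithelium genes all reached 1 FPKM in every FNP library (summed 141 to 189 FPKM, against 92.5 to 129 in MNP and 53.6 to 97.7 in MXP), but the brain expresses them too (57.6 to 309 FPKM summed), and their part in the Otx levels was not tested.

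Ordered by mean, Otx2 averaged 71.8 ± 18.9 FPKM in dB, 45.0 ± 15.7 in vB and 13.1 ± 4.70 in FNP (SD, n = 6 each). It was under 1 FPKM in every MNP library, in 4 of 5 MXP and in 5 of 6 limb libraries. The step between vB and FNP passed (log2 fold change 1.70, adjusted p = 2.0e-06, where 5.96% of all genes passed as higher), and so did that between FNP and MXP (3.27, adjusted p = 1.3e-10, where 1.53% did), but the steps between dB and vB, between MXP and limb and between limb and MNP did not pass. Otx1 averaged 41.3 ± 6.14 FPKM in dB, 15 ± 4.41 in vB, 10.8 ± 1.78 in FNP, 5.77 ± 2.02 in MXP, 2.15 ± 0.778 in MNP and 0.618 ± 0.424 in limb. Its levels therefore spread over all 6 tissues. Of the neighbours in this order dB and vB passed, as did MXP and MNP (log2 fold change 1.09, adjusted p = 0.0010), while vB and FNP did not (0.40, adjusted p = 0.10) and the steps between FNP and MXP and between MNP and limb stayed under a fold of 2.

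The 3 Otx2 transcripts in the files start at different sites, and their shares of the Otx2 signal were estimated by the authors' software, not counted. The transcript with the most upstream start (position 48667506) held 42.7% ± 3.16 of Otx2 FPKM in dB, 40.9% ± 3.86 in vB and 36.8% ± 1.43 in FNP (SD, n = 6 each). The middle start (48665109) held 35.4% ± 3.98 in dB, 40.3% ± 6.69 in vB and 36.7% ± 11.1 in FNP. The most downstream start (48662872) held 21.9% ± 6.67 in dB, 18.9% ± 6.96 in vB and 26.5% ± 10.3 in FNP. All 3 starts carried a share in each tissue. For the most upstream start the libraries lay between 38.8% and 45.6% in dB, between 35.6% and 45.1% in vB and between 34.7% and 38.3% in FNP, so that dB and FNP did not overlap, a difference that was not tested, while for the other 2 starts the tissues overlapped. In contrast, 1 of the 2 Otx1 transcripts held on average between 89.5% and 92.4% of Otx1 FPKM in each of the 5 tissues where Otx1 was at 1 FPKM or more in all or nearly all libraries.

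**Figure D3:**
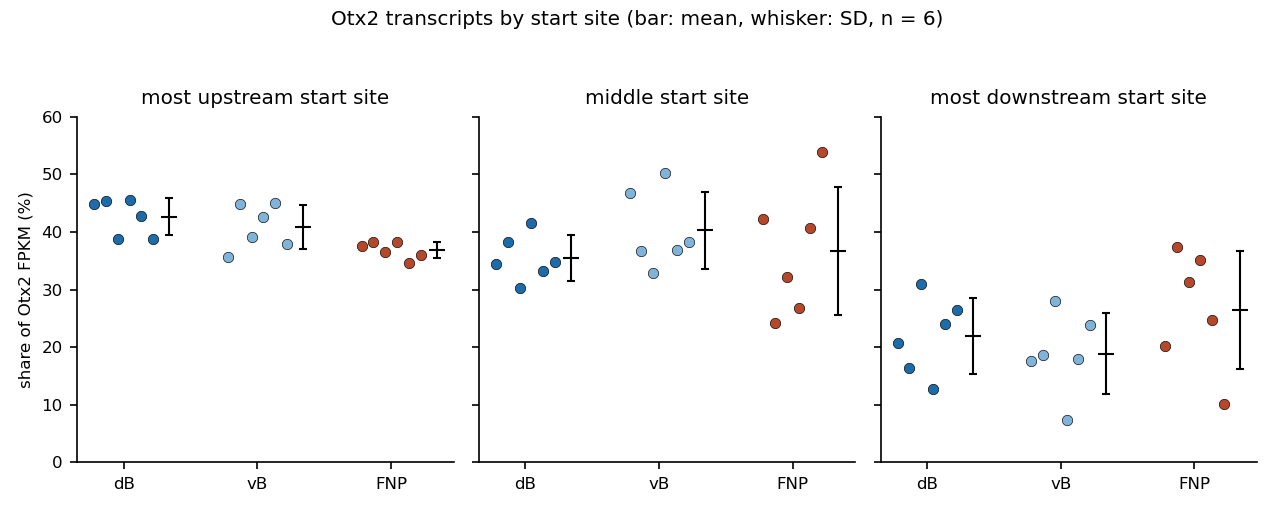
Share of Otx2 FPKM in percent (y axis) held by the transcript from each of 3 start sites (panels) in single libraries of dB, vB and FNP (x axis), with the mean as a bar and the SD as a whisker (n = 6). The most upstream start site lies between 34.7% and 45.6% in all 18 libraries, and the other 2 vary more, most of all in FNP.

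The 250 bases upstream of the annotated start nearest to each of these sites are shown because the Otx2 signal divides between them, in the RefSeq annotation of GRCm38.p6, 5′ to 3′ on the minus strand of chromosome 14. Capitals mark TAATCC (or its reverse complement GGATTA, as in the second sequence), preferred by the lysine class that Otx2 belongs to, and TAATTA, which reads the same on both strands. The first sequence lies at chr14:48667509-48667758, 2 bases from the most upstream start in the files, the second at chr14:48665110-48665359, directly before the middle start, and the third at chr14:48662735-48662984, where the annotated start is 138 bases downstream of the most downstream start in the files, so that the sequence runs across that start.
Otx2 upstream start: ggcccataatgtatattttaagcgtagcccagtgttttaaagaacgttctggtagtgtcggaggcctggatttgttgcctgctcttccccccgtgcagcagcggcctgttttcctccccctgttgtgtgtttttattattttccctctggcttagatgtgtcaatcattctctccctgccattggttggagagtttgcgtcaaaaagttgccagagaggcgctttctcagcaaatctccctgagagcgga
Otx2 middle start: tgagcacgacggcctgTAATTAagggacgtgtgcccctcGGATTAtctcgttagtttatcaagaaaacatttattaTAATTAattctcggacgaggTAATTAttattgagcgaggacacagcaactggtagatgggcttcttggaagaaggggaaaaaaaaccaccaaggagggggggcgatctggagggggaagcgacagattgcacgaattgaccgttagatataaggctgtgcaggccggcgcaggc
Otx2 downstream start: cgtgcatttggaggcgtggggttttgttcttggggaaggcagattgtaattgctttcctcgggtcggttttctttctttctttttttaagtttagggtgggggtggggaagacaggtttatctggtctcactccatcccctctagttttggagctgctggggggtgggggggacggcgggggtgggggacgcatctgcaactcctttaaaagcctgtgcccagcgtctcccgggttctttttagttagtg
The middle start had 1 TAATCC match (211 bases upstream) and 3 TAATTA matches (234, 174 and 154 bases upstream), and the other sequences had none. Among 32851 mouse promoters with the same window, 6.25% held TAATCC and 4.84% held TAATTA. Of the 11 RefSeq promoters of 7 of the 9 genes, 2 held TAATCC (the middle Otx2 start and 1 of Barhl1) and 2 held TAATTA (both of Otx2, the other being a start site whose window overlaps the first sequence). A match is a string of letters and was not tested as a binding site.

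Emx1 and Emx2, which pattern the cerebral cortex, were both higher in dB than vB. Emx1 (chr6:85187931-85204463, plus strand) had 22.3, 36.5, 36.2, 19.2, 42.7 and 42.2 FPKM in dB replicates 1 to 6, against 1.83, 9.53, 4.72, 3.72, 3.08 and 4.33 FPKM in vB. No library overlapped, and the log2 fold change of 2.69 (SE 0.25, adjusted p = 8.5e-09) kept passing among replicates 1 to 3 (2.53) and among replicates 4 to 6 (2.84) alone. Emx2 (chr19:59458690-59465357, plus strand) had 30.1, 43.1, 44.4, 21.4, 52.0 and 49.1 FPKM in dB, against 13.7, 23.4, 20.0, 5.25, 13.4 and 20.0 FPKM in vB. The groups overlapped only through dB replicate 4 and vB replicate 2, and the log2 fold change was 1.34 (SE 0.33, adjusted p = 0.014). That call was lost among replicates 1 to 3 (1.02, adjusted p = 0.28), among replicates 4 to 6 (1.66, adjusted p = 0.47), and without FNP replicates 4 and 5 and vB replicates 1, 4 and 5, which earlier results of these data had set apart (0.83, adjusted p = 0.12). The ratio of Emx1 to Emx2 FPKM was 0.830 ± 0.0521 in dB and 0.322 ± 0.209 in vB (SD, n = 6 each), and of the vB libraries only replicate 4, at 0.708, came near the dB range of 0.742 to 0.897.

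Outside the brain the 2 Emx genes parted. Emx1 stayed at or below 1.88 FPKM in all facial libraries (median 0.538), against 1.83 to 42.7 FPKM in neural libraries (median 14.4), and it passed with a log2 fold change of 3.04 for neural against facial tissue (SE 0.17, adjusted p = 7.2e-17). The overlap of the groups came from vB replicate 1 and MXP replicate 1 alone. In limb it lay between 1.18 and 1.86 FPKM (1.51 ± 0.257, SD, n = 6), and neural tissue was higher than limb by 2.37 (SE 0.22, adjusted p = 5.7e-11). Emx2 was found at over 2 FPKM in every library of every tissue. It lay between 5.25 and 52.0 FPKM in neural libraries (median 22.4), between 2.22 and 29.7 FPKM in facial libraries (median 7.37) and between 4.23 and 8.18 FPKM in limb (median 5.01). These ranges overlapped, and it passed in neural against facial tissue (a log2 difference of 1.44, SE 0.22, adjusted p = 1.1e-06) and in neural tissue against limb (1.97, SE 0.29, adjusted p = 8.0e-07). In the order of means of Emx1 the steps between dB, vB and limb passed (vB against limb 1.03, adjusted p = 0.0011, where 8.29% of all genes passed as higher), and no later step did. Limb was nevertheless clear of FNP in every library (0.242 to 0.849 FPKM in FNP), and facial tissue against limb had an adjusted p of 0.026 with a fold under 2 (-0.67). For Emx2, dB at 40.0 ± 11.9 FPKM (SD, n = 6) was followed by MXP at 17.5 ± 11.3 (n = 5) and vB at 16.0 ± 6.55 (n = 6). The step between dB and MXP passed (1.37, adjusted p = 0.0023, where 7.10% of all genes passed as higher), and neither the step between MXP and vB (-0.03, adjusted p = 0.96) nor any later one did.

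The high mean of Emx2 in MXP came from 3 of its 5 libraries. Emx2 had 4.60, 4.60, 2.22, 6.45, 7.90 and 2.88 FPKM in MNP replicates 1 to 6, against 5.96, 29.7, 19.1, 5.88 and 27.0 FPKM in MXP replicates 1, 2, 3, 5 and 6. MXP replicates 2, 3 and 6 were above every MNP library, while replicates 1 and 5 lay within the MNP range. The MNP against MXP contrast passed as lower in MNP (log2 fold change -1.49, SE 0.35, adjusted p = 0.013), but not without MXP replicate 2 (adjusted p = 0.085), 3 (adjusted p = 0.056) or 6 (adjusted p = 0.075), nor among replicates 4 to 6 alone (-1.13). Without the 4 libraries with raised Nkx2-1 and Hes5, MXP replicate 5 among them, it passed (-1.78, adjusted p = 0.0028). Other genes split the MXP libraries in the same places. Emx2os, a noncoding transcript whose start lies 54 bases from that of Emx2, had 5.48, 3.14 and 4.43 FPKM in MXP replicates 2, 3 and 6, against 0.473 and 0.590 FPKM in replicates 1 and 5. En1 had 2.40, 0.865 and 1.14 FPKM in the same 3 libraries and 0.0707 and 0.0689 FPKM in the other 2. Fgf8, a secreted growth factor of facial ectoderm, ran the other way, at 6.54, 6.23 and 9.08 FPKM against 23.4 and 22.6 FPKM. Whether the sequencing run had a part in this split was not tested.

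**Figure D4:**
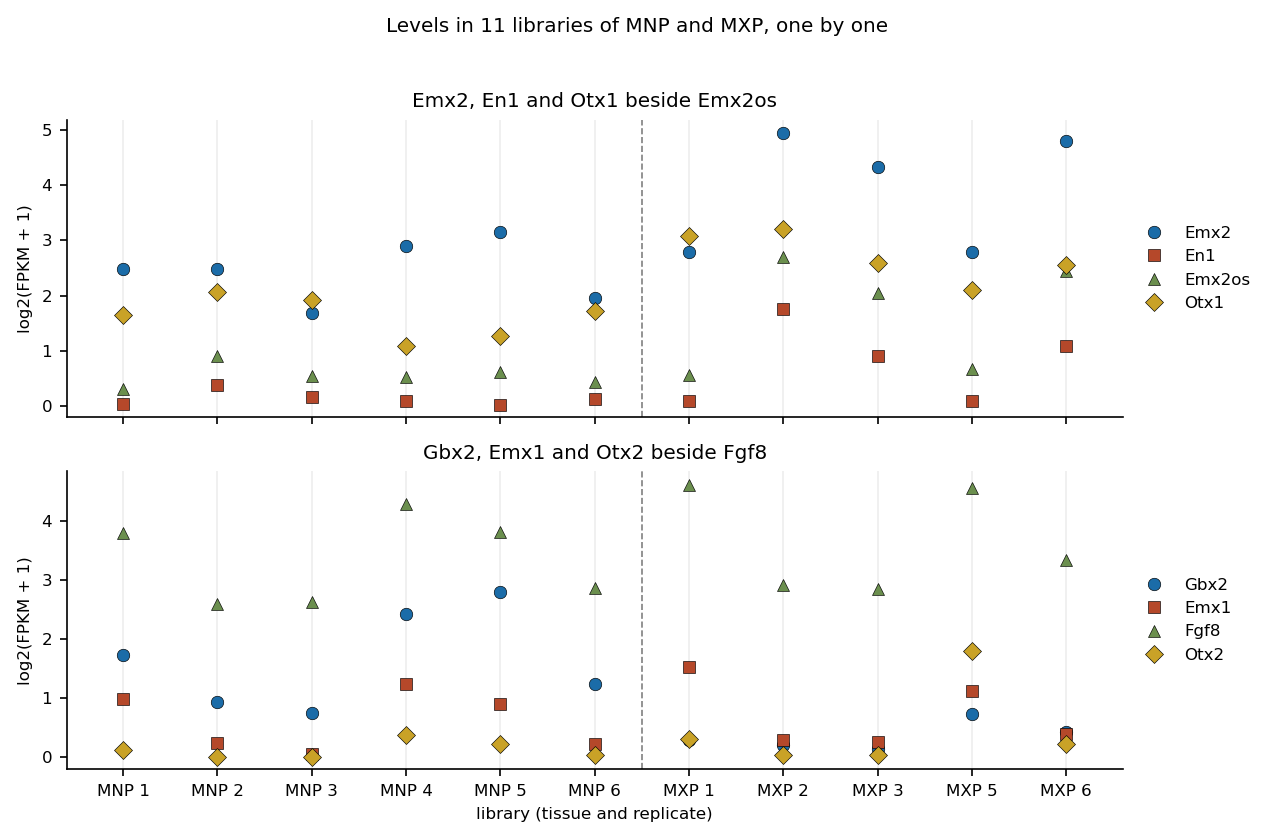
log2(FPKM + 1) (y axis) in each of the 6 MNP libraries (left of the dashed line) and 5 MXP libraries (right), for Emx2, En1, Otx1 and Emx2os (upper panel) and for Gbx2, Emx1, Otx2 and Fgf8 (lower panel). Emx2, En1 and Emx2os are high together in MXP replicates 2, 3 and 6, and Gbx2 and Fgf8 are high together in MNP replicates 1, 4 and 5.

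Otx1 and Gbx2 separated MNP and MXP without overlap. Otx1 had 2.14, 3.17, 2.78, 1.13, 1.42 and 2.28 FPKM in MNP, all below the 3.31 to 8.23 FPKM of MXP, and passed as lower in MNP (log2 fold change -1.09, SE 0.21, adjusted p = 0.0010). The fold stayed just under 2 without MNP replicate 4 (-0.98), MXP replicate 1 or MXP replicate 2 (-0.96), and the call was lost among replicates 4 to 6 alone (-0.97, adjusted p = 0.31). Gbx2, which in the brain keeps Otx2 out of the hindbrain and is also expressed in the first pharyngeal arch, had 2.31, 0.920, 0.682, 4.38, 5.96 and 1.37 FPKM in MNP, against 0.231, 0.153, 0.105, 0.658 and 0.349 FPKM in MXP. Every MNP library was above every MXP library, though the lowest MNP value of 0.682 FPKM and the highest MXP value of 0.658 FPKM nearly met. Gbx2 passed as higher in MNP (log2 fold change 1.29, SE 0.33, adjusted p = 0.024), but not without MNP replicate 1 (adjusted p = 0.050), 4 (0.083) or 5 (0.099), nor without MXP replicate 2 (0.075), 3 (0.080) or 6 (0.054). MNP replicates 1, 4 and 5 had the most Gbx2 and also the most Fgf8, at 12.9, 18.5 and 13.1 FPKM, against 5.07, 5.18 and 6.32 FPKM in the other 3. Fgf8 split by the same replicate numbers in FNP (34.7, 41.8 and 30.9 FPKM, against 8.83, 13.4 and 16.4 FPKM). In limb it did so too (42.6, 57.4 and 47.1 FPKM, against 26.7, 19.8 and 17.7 FPKM). With MXP replicates 1 and 5 also highest, the Fgf8 split was not particular to MNP or MXP, and its source was not tested.

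Elsewhere Gbx2 (chr1:89927962-89931176, minus strand) was low, which makes it uncertain. It had 0.0865, 3.16, 1.5, 0.733, 0.535 and 3.31 FPKM in dB, against 0.699, 1.55, 0.759, 0.712, 0.490 and 2.83 FPKM in vB. The groups overlapped almost fully, and the log2 fold change of 0.13 (95% interval -0.50 to 0.77) did not pass (adjusted p = 0.91). Gbx2 also missed in neural against facial tissue (0.40, adjusted p = 0.10), and in neural tissue against limb its adjusted p of 0.033 came with a fold under 2 (0.70). In FNP it was at most 0.288 FPKM, below all MNP libraries, and the contrast of FNP with the other prominences stayed under the fold threshold (-0.90, adjusted p = 0.032). No pair of neighbours passed in its order of means, MNP, dB, vB, limb, MXP and FNP. The reads of Gbx2 may not all be its own, since the transcripts AK138361 and D130058E05Rik overlap it and the strand setting of the counting is not given in the sources used here.

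En1, En2 and Dmbx1, which mark midbrain and its border with the hindbrain, varied widely between libraries of the same brain tissue. En2 (chr5:28165696-28172166, plus strand) had 16.9, 4.38, 3.79, 11.2, 3.05 and 0.432 FPKM in dB replicates 1 to 6, against 0.0719, 0.165, 0, 16.4, 23.8 and 3.41 FPKM in vB. The 3 lowest values and the highest were all from vB, replicates 1 to 3 at the bottom and replicate 5 at the top. The log2 fold change was 0.63 (SE 0.56, 95% interval -0.52 to 1.78, adjusted p = 0.66). En1 (chr1:120602487-120607991, plus strand) had 4.52, 2.07, 1.13, 1.82, 0.858 and 1.15 FPKM in dB, against 0.0734, 0.132, 0.0282, 3.73, 7.67 and 0.603 FPKM in vB. Again vB replicates 1 to 3 were the lowest and vB replicate 5 the highest, and the log2 fold change was 0.38 (SE 0.37, 95% interval -0.36 to 1.13, adjusted p = 0.70). Dmbx1 (chr4:115915119-115939926, minus strand) had 10.5, 5.10, 6.64, 11.6, 8.78 and 3.19 FPKM in dB, against 0.419, 0.135, 0.110, 3.05, 5.52 and 1.24 FPKM in vB. Only dB replicates 2 and 6 were below the highest vB library, and Dmbx1 passed as higher in dB (1.89, SE 0.29, adjusted p = 4.2e-05).

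What dB against vB gave for these 3 genes depended on which replicates entered. Among replicates 1 to 3, which came from other sequencing runs, as named with the tables, than replicates 4 to 6, all 3 passed as higher in dB: En2 by a log2 fold change of 2.84 (adjusted p = 4.8e-05), En1 by 1.62 (adjusted p = 0.011) and Dmbx1 by 2.74 (adjusted p = 4.2e-07). Among replicates 4 to 6 none passed, at -1.58 for En2 (adjusted p = 0.66), -0.85 for En1 (adjusted p = 0.74) and 1.04 for Dmbx1 (adjusted p = 0.59). Without vB replicates 1, 4 and 5 and FNP replicates 4 and 5, En2 passed (1.71, adjusted p = 0.0061), as did En1 (1.14, adjusted p = 0.0040) and Dmbx1 (2.51, adjusted p = 4.3e-09). That set leaves out vB replicates 4 and 5, the vB libraries with the most En1, En2 and Dmbx1. These calls therefore follow in part from the choice of libraries. With the sequencing run as a block, no call of the 9 genes in this contrast changed. Mesenchyme markers also differed between the brain libraries: the 12-gene list summed to 242 to 458 FPKM in dB and to 26.5 to 436 FPKM in vB, with no gene at 0 and with 12 genes at 1 FPKM or more in each dB library against 4 to 12 genes in vB. In libraries of face and limb these sums lay between 520 and 1493 FPKM, and the part of such cells in the brain values was not tested.

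Outside the brain En1 reached 1 FPKM in limb and part of MXP, Dmbx1 in FNP and En2 nowhere. En2, at most 0.294 FPKM in any facial library and listed at 0 in all 6 FNP libraries, passed as higher in neural than facial tissue (2.12 on the log2 scale, SE 0.37, adjusted p = 9.6e-06) and than limb (2.17, SE 0.49, adjusted p = 0.00040), although 3 vB libraries lay within the facial range. Since En2 entered the tests through brain alone, the filter had set the direction of both calls. En1, which sets the ventral side of the limb ectoderm, had 3.44, 2.79, 3.61, 1.37, 2.49 and 2.86 FPKM in limb, against 0 to 2.40 FPKM in facial libraries (median 0.0707). Only MXP replicate 2 reached the limb range, and En1 passed as lower in facial tissue than in limb (-1.54, SE 0.30, adjusted p = 0.00036), though not among replicates 4 to 6 alone (adjusted p = 0.070). Neural tissue against limb did not pass (-0.63, SE 0.32, adjusted p = 0.11), and neural against facial tissue stayed just under a fold of 2 (0.91, SE 0.24, adjusted p = 0.0016), passing when vB replicate 1, 2 or 3 was left out (1.01, 1.00 and 1.02). Dmbx1 had 2.93, 2.98, 2.25, 2.13, 1.58 and 2.56 FPKM in FNP, clear of the 0.0320 to 0.613 FPKM of the other prominences, and passed as higher in FNP (1.46, SE 0.26, adjusted p = 0.00011). It did so as well without the 4 libraries with raised forebrain markers (1.54), though not among replicates 4 to 6 alone (1.40, adjusted p = 0.057).

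Over all brain libraries Dmbx1 lay between 0.110 and 11.6 FPKM in neural libraries (median 4.14), between 0.0320 and 2.98 FPKM in facial libraries (median 0.483) and at 0.391 FPKM or below in limb. Neural tissue was higher than facial tissue by a log2 difference of 1.28 (SE 0.19, adjusted p = 6.5e-07) and higher than limb by 1.81 (SE 0.25, adjusted p = 3.0e-07). Brain and face overlapped through vB replicates 1, 2, 3 and 6, since no dB library was within the facial range. FNP averaged 2.41 ± 0.533 FPKM, against 1.74 ± 2.16 FPKM in vB (SD, n = 6 each), a step that did not pass (0.63, adjusted p = 0.082). dB against FNP passed (1.26, adjusted p = 0.00086, where 5.50% of all genes passed as higher). For En1 no pair of neighbours passed in the order limb, vB, dB, MXP, MNP and FNP, and for En2 only the step between dB and MNP did (2.35, adjusted p = 0.0011, where 7.21% of all genes passed as higher).

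Barhl1 (chr2:28907680-28916440, minus strand), needed for the survival of cerebellar granule neurons and inner ear hair cells, was above 1 FPKM in every brain library and in no other. It had 5.24, 5.10, 4.87, 3.78, 3.65 and 3.48 FPKM in dB, against 1.90, 6.81, 7.0, 2.52, 7.16 and 11.3 FPKM in vB. The vB libraries lay on both sides of the narrow dB range, and the log2 fold change of -0.25 (SE 0.20, 95% interval -0.66 to 0.15) did not pass (adjusted p = 0.59). In vB it was lowest in replicates 1 and 4. Without those 2, vB replicate 5 and FNP replicates 4 and 5, the log2 fold change was -0.79 (adjusted p = 5.6e-06), still under a fold of 2. All 23 libraries of face and limb were at 0.226 FPKM or below, so that no library overlapped with the brain. The log2 fold change was 2.46 with an SE of 0.13 for neural against facial tissue (adjusted p = 3.0e-17) and 2.49 with an SE of 0.17 for neural tissue against limb (adjusted p = 4.3e-14). Since 1 FPKM was added to each value, the ratio of FPKM between brain and the other tissues is larger than these values state. Barhl1 entered the tests through brain alone, so the filter had set the direction of both calls.

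Read library by library, the 12 brain libraries ranged from ones led by Emx genes to ones led by En genes. The log2 ratio of En2 to Emx2, with 1 FPKM added to each, was -0.79 and -0.88 in dB replicates 1 and 4, against -3.03 to -5.13 in the other 4 dB libraries. In vB it was 1.48 and 0.78 in replicates 4 and 5, against -2.25 to -4.39 in the other 4. Summed FPKM gave this picture only in part for the Emx genes. Emx1 and Emx2 together had 40.6 FPKM in dB replicate 4 and 8.97 FPKM in vB replicate 4, the lowest of their tissues, and 52.4 FPKM in dB replicate 1. In vB replicate 5 they had 16.5 FPKM, above the 15.5 FPKM of vB replicate 1. En1, En2 and Dmbx1 together had 31.9 and 24.6 FPKM in dB replicates 1 and 4, against 4.77 to 12.7 FPKM in the other dB libraries, and 23.2 and 37.0 FPKM in vB replicates 4 and 5, against 0.138 to 5.25 FPKM in the others. The telencephalon genes moved with this range, as did Cnpy1, which was picked after its values were seen. The 12 telencephalon genes summed to 230, 439, 360, 124, 390 and 445 FPKM in dB, against 379, 633, 544, 59.4, 272 and 480 FPKM in vB, lowest in the libraries with the most En2. Cnpy1, a gene of the isthmus, had 12.6, 4.60, 4.54, 21.8, 2.52 and 1.79 FPKM in dB, against 0.532, 1.12, 1.32, 34.1, 24.6 and 4.94 FPKM in vB, highest in the libraries with the most En2. The 12 isthmic organizer genes, Cnpy1 among them, followed En2 less closely. They summed to 77.0, 55.4, 48.3, 63.6, 73.4 and 58.0 FPKM in dB, against 64.2, 47.3, 59.9, 66.2, 71.95 and 26.4 FPKM in vB. The 12 midbrain genes did not follow En2 in dB and did so only in part in vB. In dB they summed to 88.1, 95.9, 95.7, 77.1, 60.1 and 59.1 FPKM, highest in replicates 2 and 3. In vB they summed to 32.9, 37.4, 36.4, 58.7, 97.2 and 90.7 FPKM, lowest in replicates 1 to 3, with replicate 6 above replicate 4. Fgf8 was highest of the vB libraries in replicate 1 (8.74 FPKM), where En2 was at 0.0719 FPKM. Otx2 did not follow the Emx genes, its FPKM being highest in both tissues in replicate 4. The summed FPKM of all transcripts also differed between vB libraries and was not adjusted for here. It was 690068 in replicate 4, against 492861 and 462369 in replicates 5 and 6, and highest in replicate 1 (824967).

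**Figure D5:**
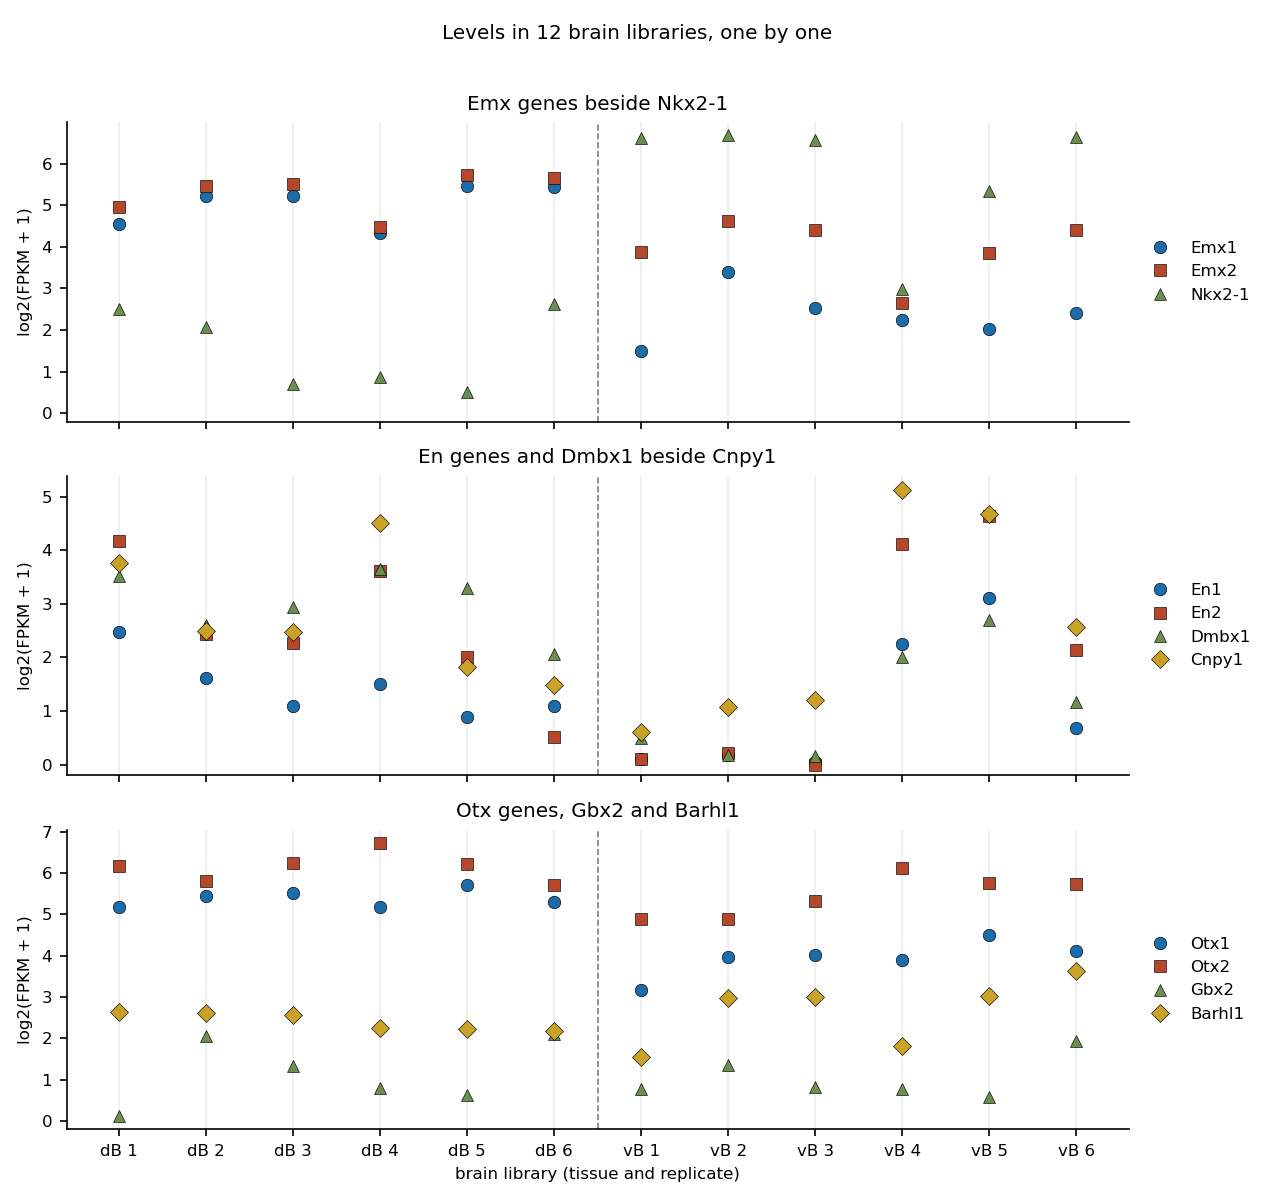
log2(FPKM + 1) (y axis) in the 12 brain libraries, dB left and vB right of the dashed line, for Emx1 and Emx2 beside Nkx2-1 (top), En1, En2 and Dmbx1 beside Cnpy1 (middle), and Otx1, Otx2, Gbx2 and Barhl1 (bottom). In replicate 4 of both tissues Emx2 is at its lowest and Cnpy1 at its highest, and vB replicates 1 to 3 have next to no En1, En2 or Dmbx1.

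Pairs of the 9 genes were compared over the 6 libraries of each brain tissue, as 36 pairs with exact two-sided permutation tests. With 6 libraries the smallest exact p is 0.0014, which for a single pair among 36 adjusts to 0.05 at best, so that a count of 0 under 0.05 says little. In dB 5 pairs had an unadjusted p under 0.05 and 0 had an adjusted p under 0.05. The closest pair was Emx1 and Emx2 (r = 0.983, exact permutation p = 0.0028, adjusted p = 0.10, and rho = 0.943, exact permutation p = 0.017, adjusted p = 0.35), with r = 0.960 without the 2 libraries farthest from the median of Emx1. In vB 4 pairs had an unadjusted p under 0.05 and 0 had an adjusted p under 0.05. There En1, En2 and Dmbx1 fell into separate clusters of libraries, with replicates 1 to 3 low and 4 and 5 high, so that no correlation is given over them, and each sequencing run held too few vB libraries for a value of its own.

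The other genes of the region lists gave the setting of these values. Of the 12 listed isthmic organizer genes, 9 were tested and 3 passed as higher in neural than facial tissue, against 6.64% of all genes, led by Cnpy1 (log2 fold change 2.43, SE 0.34, adjusted p = 2.5e-07), then Fgf17 (1.69) and Wnt1 (1.69). The 2 that passed as lower, against 4.64% of all genes, were Fgf8 (-1.09) and Il17rd (-1.02), a ligand and an inhibitor of Fgf signalling. Wnt1, a secreted signal of the midbrain roof and its hind border, had 1.78 to 7.07 FPKM in dB (median 4.52), against 0.343 to 2.44 FPKM in vB (median 1.60), and was the 1 isthmic gene that passed in dB against vB (1.18, SE 0.19, adjusted p = 0.00012). Pax5 was listed at between 0 and 2.81 FPKM in dB and between 0.126 and 1.56 FPKM in vB, highest in dB replicate 1 and vB replicate 5, both libraries with much En2. Of the 12 midbrain genes 3 passed as higher in dB than vB, Pax3 (1.97), Pou4f1 (1.41) and Tal2 (1.24), and 1 passed as lower, against 0.954% and 0.438% of all genes. Pax7, a gene of dorsal midbrain, had 1.95 to 4.15 FPKM in dB (median 3.49), against 0.358 to 5.59 FPKM in vB (median 0.763), where replicate 5 stood alone at the top, and it stayed just under a fold of 2 (0.99, adjusted p = 0.0057).

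Among 12 telencephalon genes 10 passed as higher in neural than facial tissue, led by Lhx2 (log2 fold change 4.48), and none lower, against 6.64% and 4.64% of all genes. In dB against vB only Dmrt3, a gene of the cortical primordium, passed as higher (1.94, SE 0.17, adjusted p = 1.8e-09), and 3 ventral genes passed as lower, Nkx2-1 (-4.26), Dlx1 (-2.01) and Dlx2 (-1.99), against 0.954% and 0.438% of all genes. In FNP against the other prominences 5 of the 12 passed as higher, Lhx2 (3.43) and Dmrt3 (2.19) among them, and Dlx1 and Dlx2 passed as lower, against 1.57% and 0.739% of all genes. Of 15 further homeobox genes of related families 13 were tested. Of these, 3 passed as higher in neural than facial tissue, Barhl2 (3.36), the closest relative of Barhl1, Nkx2-1 (2.79) and Vax1 (1.64), and 7 passed as lower, with Barx1 (-4.94), Pitx1 (-3.96) and Gsc (-3.47) first, against 6.64% and 4.64% of all genes. In dB against vB Barhl2 passed as higher (1.08, SE 0.21, adjusted p = 0.0013), unlike Barhl1, and 4 passed as lower, led by Nkx2-1 and Vax1 (-2.27), again beside 0.954% and 0.438% of all genes.

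As a description, the genes with the pattern most like each of the 9 were found by Pearson's r of log2(FPKM + 1) over the 12 brain libraries, which share depth, runs and region, and over all 35 libraries. Within the brain the closest gene was Boc for Otx1 (r = 0.963), Slc39a12 for Otx2 (0.948), Dmrta1 for Emx1 (0.968), Zic1 for Emx2 (0.967), En2 for En1 (0.920), Irx6 for En2 (0.954), Reln for Gbx2 (0.924), Cercam for Dmbx1 (0.981) and Rnd1 for Barhl1 (0.942). Dmbx1 was itself the third gene for Otx2 (0.897), and Cnpy1 the third for En2 (0.952). For En1, En2 and Dmbx1 these values span the separate clusters of vB libraries described above, and in part restate that split. Differences between tissues also enter r, over the brain libraries and over all 35. Over all 35 libraries the closest was Edil3 for Otx1 (0.918), Plch1 for Otx2 (0.977), Foxj1 for Emx1 (0.945), E330013P04Rik for Emx2 (0.863), Cd44 for En1 (0.747), Cnpy1 for En2 (0.958), AK138361 for Gbx2 (0.835) and Rnd1 for Barhl1 (0.987). En1 had the loosest match and Barhl1 the closest. AK138361 overlaps Gbx2, so that the same reads may stand behind both.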

How the data were processed

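RNA-seq of 35 libraries (paired-end, polyA RNA) was analysed. The authors' deposited tables list, per transcript, FPKM from Cufflinks (mm10, UCSC known genes) and its coverage (signal). The processing notes name Bowtie2 and DESeq2, but the aligner behind these tables is not given in the sources used here. Unreadable entries (65 of 59120 transcripts) were dropped, which left 59055. FPKM were summed per gene and tested with limma 3.58.1 (R 4.3.3, trended and robust) on log2(FPKM + 1) in 13934 genes averaging at least 1 FPKM in a tissue, with 1 mean per tissue. The fit was tested on simulated data. The thresholds were a fold of 2 and an adjusted p (Benjamini-Hochberg) of 0.05. FPKM carry no read counts, so counting error is unknown and no count model was run. The dissections are described as independent biological replicates of pooled embryos. Python 3.11.15, pandas 2.3.3 and SciPy 1.17.1 gave the summaries and exact tests. The 9 genes and the region lists were chosen with earlier results of these data known. Named besides them were, of each list, up to 3 genes of largest fold per direction that passed, Nkx2-1, Pax7, Pax5, Fgf8, Wnt1, Hoxa2 and Egr2, and the genes of most similar pattern. Hes5, Emx2os and the 2 transcripts overlapping Gbx2 were named after their values were seen, as was Cnpy1 in single libraries. A few genes and 1 sequence that these rules would name are not reported here.
Alternatives were a pseudocount of 0.1, no filter, quantile normalization, transcripts under 200 bases left out, limma without trend or robust fitting, no fold threshold, replicates 1 to 3 alone, replicates 4 to 6 alone, a block for the replicate number or the sequencing run, 5 or 4 libraries left out, and each library left out in turn.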

Additional observations from a re-analysis of the deposited data

Results flagged for a closer look

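In 6 of 54 groups of libraries (9 genes in 6 tissues) 1 library stood far from the others by Dixon's criterion, which chance alone meets in about 1 of 20 groups. Otx2 was at 2.49 FPKM in MXP replicate 5, against 0.0258 to 0.246 FPKM in the other MXP libraries. Limb replicate 1 stood apart for 3 genes: Otx2 at 1.17 FPKM, against 0 to 0.198 FPKM in the other limb libraries, Emx2 at 8.18 FPKM, against 4.23 to 5.57 FPKM, and Barhl1 at 0.155 FPKM, against 0 to 0.0265 FPKM. Both libraries also had raised Nkx2-1 and Hes5 for their tissue. In the brain, En1 was at 4.52 FPKM in dB replicate 1, against 0.858 to 2.07 FPKM in the other dB libraries. En1 was at 0.309 FPKM in MNP replicate 2, against 0.0174 to 0.116 FPKM in the other MNP libraries, all low.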

How the results depend on the processing

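No result that passed over all libraries changed direction under any alternative run. Of the 9 genes, the number lower in neural tissue than limb was 1 (En1) among replicates 1 to 3 alone and without the 5 libraries (FNP replicates 4 and 5, vB replicates 1, 4 and 5), at log2 fold changes of -1.18 and -1.01. In facial tissue against limb the number higher was 1 among replicates 1 to 3, and the number lower was 2 with a pseudocount of 0.1 or no fold threshold (Emx1 added, -1.45 and -0.67) and 0 among replicates 4 to 6. In dB against vB the number higher was 1 among replicates 4 to 6 (Emx1). It was 6 among replicates 1 to 3, with Otx2, En1 and En2 added and Emx2 lost, and 5 without the 5 libraries. In FNP against the other prominences the number lower was 1 (Gbx2) with a pseudocount of 0.1 (-2.51), no fold threshold (-0.90) or without the 5 libraries (-1.01). In MNP against MXP the number higher was 0 among replicates 1 to 3 and among replicates 4 to 6, and the number lower was 0 among replicates 4 to 6. Leaving out 1 library at a time gave 7 to 8 genes higher in neural than facial tissue, 0 to 1 higher and 0 to 2 lower in MNP than MXP, and 71 to 76 calls over pairs of tissues. In the other contrasts it left the counts as they were. With the replicate number as a block, counts were also unchanged (74 calls over pairs of tissues), as they were in the 6 contrasts with the sequencing run as a block. Same-numbered libraries shared deviations in part (median r 0.342 over 85 pairs, of which 78 were over 0.1, lowest 0.00777, against a median of -0.0737 for other numbers, and 32 of 35 libraries were closest to their own number). Same-numbered libraries were thus alike beyond their tissue, though 7 pairs were not over 0.1. No label says what a number marks, and the source of this likeness was not tested. The fit without the block was kept, so its p-values treat same-numbered libraries as independent. The call of Dmbx1 in neural against facial tissue came under a fold of 2 among replicates 1 to 3 (0.78) and without the 5 libraries (0.93), and with a pseudocount of 0.1 En1 (2.08) and Gbx2 (1.18) passed there. Calls of genes near 1 FPKM, such as En1 and Gbx2, depend on the pseudocount, and the read depth behind them is unknown.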
